A study of Mus musculus with 12 samples.

Results

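The circadian clock genes described here are 10 genes of the count table, Arntl, Clock, Per1, Per2, Per3, Cry1, Cry2, Nr1d1, Nr1d2 and Dbp. They were taken by symbol, with the versioned Ensembl identifiers of the table mapped through the GENCODE M21 annotation of the mouse genome GRCm38. The table held 48526 genes, of which 15523 passed the filter on low counts, and all 10 clock genes were among them. Levels are given as CPM, a gene's counts relative to the total of its library after TMM scaling, which corrects for the make-up of each library, and a difference is a log2 fold change from edgeR with its standard error (SE).

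Total RNA was sequenced from mouse bone marrow-derived macrophages (BMDMs), cultured from marrow cells for 6 d in medium conditioned by L929 fibroblasts. The design crossed 2 genotypes with 2 treatments and had 3 libraries in each of the 4 groups. WT UT and WT LPS came from wild-type control mice, and KO UT and KO LPS from mice homozygous for the HSS9 KO, a deletion of an enhancer near Tnf that the study calls TNF-9. The LPS groups received bacterial lipopolysaccharide for 6 hr, and the UT groups, which the sample labels mark as PBS, received none. The deletion is carried in the germline, so every cell of the culture had it. The mice were males of 7 to 10 weeks of age. The series describes the controls as littermates, whereas the methods describe purchased C57BL/6 mice and homozygous KO breeding pairs, so genotype and breeding line cannot be told apart. The labels give each replicate number a batch number of its own, with 1 library of every group in each of the 3 batches. Nothing states which libraries came from which mouse, so that the p-values measure the spread between these libraries.

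The mammalian clock is a transcriptional feedback loop. ARNTL (also called BMAL1) and CLOCK pair and activate genes that carry E-boxes, among them the Per and Cry genes, whose proteins return to the nucleus and inhibit the pair. The same pair activates Nr1d1 and Nr1d2, which encode the REV-ERB receptors that repress Arntl, and Dbp, a bZIP activator that passes the rhythm to genes with D-boxes. Macrophages have a clock of their own, and the REV-ERB receptors are known to restrain inflammatory genes in them. Each group was sampled at a single time and the time of day of marrow extraction was not given in the sources used here, so that a change of level and a shift of phase cannot be told apart. In these bulk cultures, fewer cells of a type and less RNA per cell cannot be told apart either.

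The start regions of the clock genes are shown first, to mark where E-box, D-box and RORE letters occur in them. A match of letters does not show that a site is used. The RefSeq table of 300-base promoters (GRCm38.p6, from before a gene's start to just after it) held 13 promoters for 9 of the 10 genes, and none for Per2. The letters searched on both strands were the E-box CACGTG, the E-prime box CACGTT, the D-box TTANGTAA and the RORE core NTAGGTCA, where N is any base. Among all 32851 promoters of the table, 7.15% held the E-box, 4.68% the E-prime box, 2.32% the D-box and 2.59% the RORE core. The 6 promoters printed with capitals are those that held any of these letters, and the Dbp promoter is printed because Dbp changed most. Capitals mark the letters of a match without the N at the end of the RORE core, and each sequence reads 5′ to 3′ on the strand of its gene.
Per1, E-box: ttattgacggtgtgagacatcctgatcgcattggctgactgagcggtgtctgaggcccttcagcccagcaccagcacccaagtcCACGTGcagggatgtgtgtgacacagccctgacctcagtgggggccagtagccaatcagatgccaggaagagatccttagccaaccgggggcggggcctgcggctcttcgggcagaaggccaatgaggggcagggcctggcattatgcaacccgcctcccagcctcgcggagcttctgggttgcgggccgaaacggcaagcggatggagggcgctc
Cry1, E-prime box then E-box: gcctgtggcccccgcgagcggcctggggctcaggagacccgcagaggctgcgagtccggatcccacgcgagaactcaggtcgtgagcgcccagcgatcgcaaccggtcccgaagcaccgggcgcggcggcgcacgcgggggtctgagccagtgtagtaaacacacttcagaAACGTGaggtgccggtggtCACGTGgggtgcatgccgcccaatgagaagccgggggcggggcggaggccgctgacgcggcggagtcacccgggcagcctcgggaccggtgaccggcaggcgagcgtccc
Cry2, E-prime box: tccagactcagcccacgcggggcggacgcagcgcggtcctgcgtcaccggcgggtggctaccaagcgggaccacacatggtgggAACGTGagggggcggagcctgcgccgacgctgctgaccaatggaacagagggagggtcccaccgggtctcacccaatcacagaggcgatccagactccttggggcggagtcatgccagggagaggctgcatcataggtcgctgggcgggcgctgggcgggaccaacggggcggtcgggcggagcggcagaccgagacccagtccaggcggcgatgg
Nr1d1, E-prime box: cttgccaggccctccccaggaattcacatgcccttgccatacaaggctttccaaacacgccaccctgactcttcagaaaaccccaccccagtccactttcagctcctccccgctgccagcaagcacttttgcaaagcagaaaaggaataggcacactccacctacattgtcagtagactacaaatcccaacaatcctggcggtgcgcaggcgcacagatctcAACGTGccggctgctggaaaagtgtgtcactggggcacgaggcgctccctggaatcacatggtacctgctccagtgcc
Per3, D-boxes: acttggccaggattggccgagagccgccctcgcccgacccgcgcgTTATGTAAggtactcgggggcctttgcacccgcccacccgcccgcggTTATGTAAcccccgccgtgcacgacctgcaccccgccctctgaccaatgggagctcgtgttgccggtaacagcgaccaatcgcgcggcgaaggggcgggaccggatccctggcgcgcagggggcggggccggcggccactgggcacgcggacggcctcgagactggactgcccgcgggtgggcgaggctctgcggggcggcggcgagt
Arntl, RORE core: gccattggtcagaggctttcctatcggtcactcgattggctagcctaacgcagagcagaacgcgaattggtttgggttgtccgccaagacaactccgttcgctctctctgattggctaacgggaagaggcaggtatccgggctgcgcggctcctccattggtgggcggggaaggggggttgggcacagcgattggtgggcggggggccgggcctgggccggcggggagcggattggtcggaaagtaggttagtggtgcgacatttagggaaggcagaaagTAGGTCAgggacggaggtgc
Dbp, none of the letters: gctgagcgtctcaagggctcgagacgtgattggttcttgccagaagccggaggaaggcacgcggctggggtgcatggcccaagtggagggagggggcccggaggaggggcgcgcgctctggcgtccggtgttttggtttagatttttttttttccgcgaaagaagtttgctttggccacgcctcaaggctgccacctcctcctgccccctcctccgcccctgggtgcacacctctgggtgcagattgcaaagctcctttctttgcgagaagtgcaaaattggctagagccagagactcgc

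These windows lie at chr11:69098699-69098998 (plus strand) for Per1, chr10:85185005-85185304 (minus strand) for Cry1, chr2:92434020-92434319 (minus strand) for Cry2, chr11:98775328-98775627 (minus strand) for Nr1d1, chr4:151044616-151044915 (minus strand) for Per3, chr7:113207261-113207560 (plus strand) for Arntl and chr7:45704997-45705296 (plus strand) for Dbp. Counted from the start, the E-box of Per1 began at -166 and that of Cry1 at -60. The E-prime boxes began at -79 in Cry1, -166 in Cry2 and -28 in Nr1d1, and no matches overlapped one another. Per3 was the only clock gene with a D-box in these windows and had 2, at -205 and -158. The RORE core of Arntl, the letters read by the REV-ERB and ROR receptors, began at 30 bases after the start of the second of its 2 listed promoters. The windows of Clock, Nr1d2 and Dbp held none of the 4 motifs, which says only that these letters are not in these windows. The start in the printed Per1 window lies 3732 bases inside the gene's outermost GENCODE end.

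The 12 libraries held 26154533 to 36423921 counts, and a clock gene had between 20 and 3576 counts in a library. Tnf, the readout of the deletion, was lower in KO LPS than in WT LPS by a log2 fold change of -1.04 (adjusted p = 2.76e-10), and all 3 KO LPS libraries lay below the WT LPS ones. The deleted enhancer itself is not a feature of the count table. Macrophage markers summed to between 24434 and 33679 CPM in every library, and the B cell, T cell and dendritic cell lists to 3.27 CPM at most. The 6 neutrophil markers summed to 20.3 to 21.9 CPM in WT UT, 42.3 to 47.7 in KO UT, 50.5 to 79.5 in WT LPS and 67.2 to 76.5 in KO LPS, with the defining marker Ly6g at 0 in every library. Within this list S100a8 went from 7.32 to 52.7 CPM after LPS in WT (group means) and Camp from 0.206 to 4.02, while S100a9 went from 10.99 to 6.08, Ltf from 1.82 to 0.206 and Ngp from 0.587 to 0.192. The 5 stromal cell markers summed to 4.58 to 5.21 CPM in WT UT, 4.73 to 6.59 in KO UT, 21.6 to 23.9 in WT LPS and 26.3 to 28.4 in KO LPS. The higher sums after LPS came from Pdgfrb, at a mean of 0.966 CPM in WT UT, 19.8 in WT LPS and 19.7 in KO LPS, while Col1a1, Col1a2 and Col3a1 were lower in WT LPS than in WT UT. Between the LPS groups Col1a1, Col1a2, Col3a1 and Dcn had the higher means in KO, at 0.788 to 2.43 CPM against 0.291 to 1.05 in WT. Small structured RNAs (snoRNA, snRNA and like classes) had a share of the counts of 3.00 to 3.25% in WT UT, 6.64 to 7.98% in KO UT, 4.04 to 6.89% in WT LPS and 3.23 to 3.43% in KO LPS. The WT LPS replicates differed most among themselves, with a chi-square per degree of freedom of 43.7 between replicates 1 and 3.

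Compared per kb of exon, which allows levels to be set between genes, Nr1d2 and Per1 led the loop before stimulation. In WT UT the mean level was 13.9 CPM per kb for Nr1d2, 11.5 for Per1, 5.004 for Dbp, 3.91 for Clock and 2.24 for Cry1. Arntl at 1.91, Per3 at 1.76 and Cry2 at 1.75 CPM per kb overlapped with their neighbours over the libraries, followed by Nr1d1 at 1.20 and Per2 at 0.921. KO UT kept Nr1d2, Per1, Dbp, Clock and Cry1 in the same first 5 places, with Cry1 overlapping with Per3 in the sixth. After LPS the order was different. Dbp went from the third place to the ninth in each genotype, at 0.430 CPM per kb in WT LPS and 0.578 in KO LPS, and Cry2 rose to the third place in WT LPS (4.17 CPM per kb) and the fifth in KO LPS (3.01 CPM per kb). Per3 was last after LPS, at 0.365 and 0.319 CPM per kb. Some of these places were not separated over the libraries, since Dbp overlapped with Nr1d1 in the eighth place in both genotypes and with Per3 in WT LPS, Per1 overlapped with Nr1d2 in WT LPS, and Clock, Cry1 and Cry2 overlapped with their neighbours in KO LPS.

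**Figure D1:**
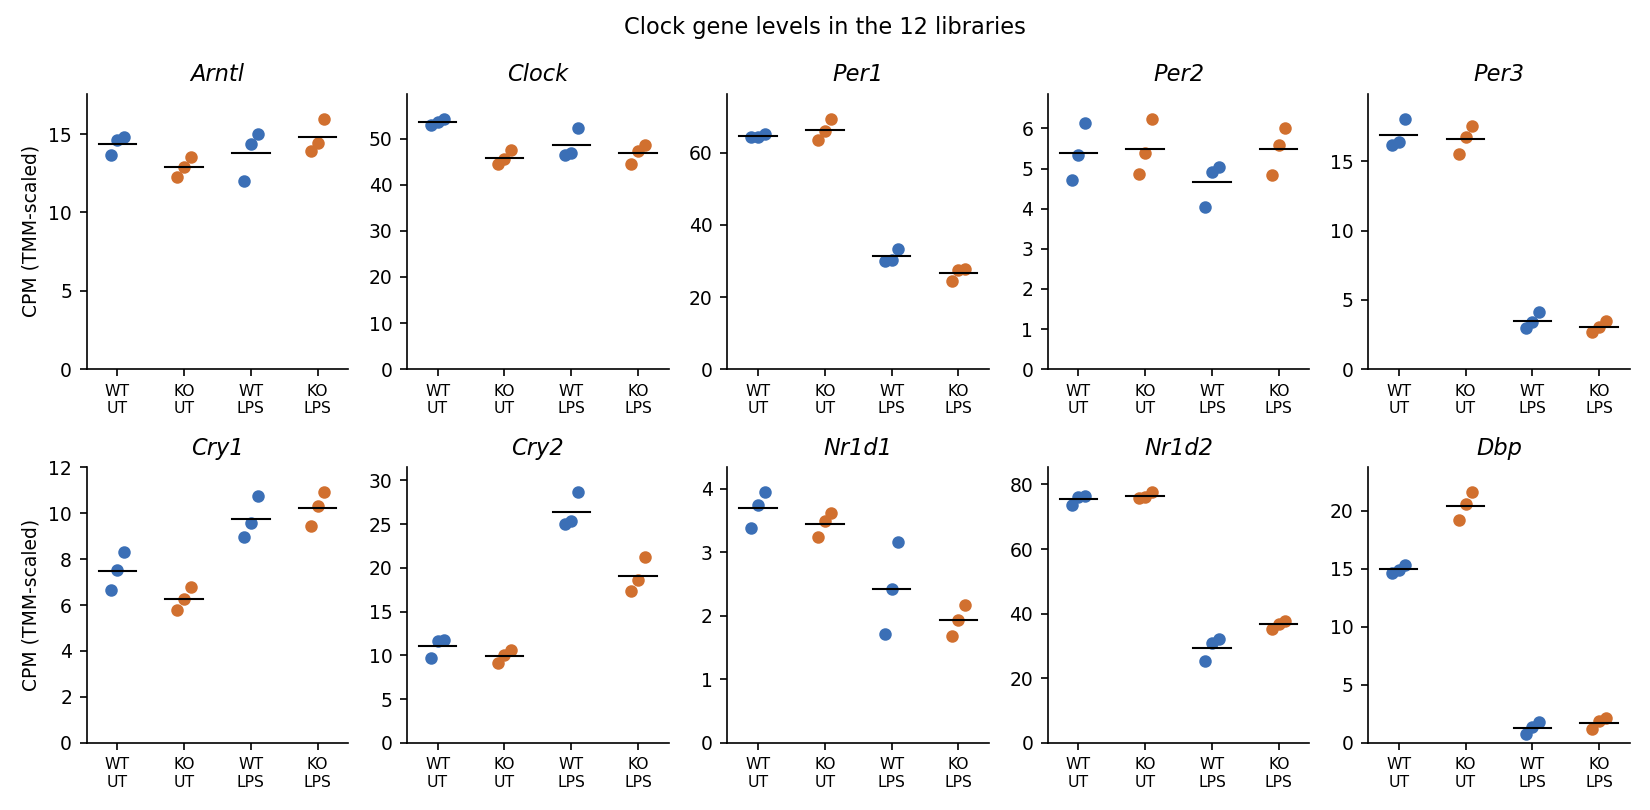
Levels of the 10 clock genes in the 12 libraries, 1 panel per gene, with TMM-scaled CPM on a vertical axis that starts at 0 and differs between panels; points are libraries ordered by value within a group, horizontal bars are group means, and blue is WT and orange KO. Dbp, Per3, Per1, Nr1d2 and Nr1d1 sit lower in both LPS groups, Cry1 and Cry2 higher, and Arntl and Per2 overlap between WT UT and WT LPS.

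The first question was how the loop responded to LPS. Of the 10 clock genes, 5 were called in WT (adjusted p under 0.05 and more than 1 log2 unit), Dbp, Per3, Nr1d2 and Per1 lower and Cry2 higher. In KO 4 were called, the same lower genes. These calls changed in 3 places under the alternatives, where Per1 in WT was at -0.97 in protein-coding genes only and missed the fold threshold, and in KO Cry2 reached it at 1.001 without KO LPS replicate 1 and Nr1d1 at -1.02 with upper-quartile scaling. LPS moved much of the transcriptome, and 37.8% of all genes tested were called in WT (18.7% lower, 19.1% higher) and 37% in KO (19.3% lower, 17.7% higher). At any fold, 8 clock genes passed in WT and 7 in KO, against 73.3% (38% higher, 35.3% lower) and 72.8% (35.1% higher, 37.7% lower) of all genes, so the count of responding clock genes was near the background, and what follows concerns which genes moved and by how much. The median log2 fold change of the 10 genes was -0.41 in WT and -0.42 in KO, beside 0.05 and -0.06 over all genes.

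Dbp, the output gene of the loop, fell most of the 10. Dbp (ENSMUSG00000059824.12, chr7:45705088-45710203, plus strand) had 14.9, 15.3 and 14.7 CPM in WT UT and 0.745, 1.75 and 1.37 CPM in WT LPS, and 20.6, 21.6 and 19.2 CPM in KO UT against 2.11, 1.91 and 1.171 CPM in KO LPS. Every LPS library lay far below every UT library, and UT and LPS libraries did not overlap for 74.8% of all genes in WT and 76% in KO. The fall was 11.9-fold in WT (log2 fold change -3.57, SE 0.182, adjusted p = 9.15e-14) and 11.8-fold in KO (log2 fold change -3.56, SE 0.165, adjusted p = 1.74e-14). Within the 3 batches the log2 differences were -4.22, -3.09 and -3.37 in WT and -3.25, -3.46 and -3.96 in KO. The KO response minus the WT response was 0.01, with a 95% interval of -0.49 to 0.50. Of the 2993 exonic bases of Dbp, 539 overlap Sphk2 on the other strand, and Sphk2 rose by 0.83 in WT and 0.90 in KO, opposite to Dbp.

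The PER repressors differed in how far they moved. Per3 (ENSMUSG00000028957.12, chr4:151003652-151044665, minus strand) had 16.4, 16.2 and 18.1 CPM in WT UT and 2.94, 4.13 and 3.44 CPM in WT LPS, a 4.84-fold fall (log2 fold change -2.28, SE 0.122, adjusted p = 2.40e-13). In KO it went from 16.8, 17.5 and 15.5 CPM to 3.49, 2.67 and 3.04 CPM, a 5.42-fold fall (log2 fold change -2.44, SE 0.123, adjusted p = 7.89e-14). The UT and LPS libraries of Per3 did not overlap in either genotype. Per1 (ENSMUSG00000020893.17, chr11:69095217-69109960, plus strand), an early-response member of the family, fell from 64.4, 64.3 and 65.1 CPM to 30.1, 30.3 and 33.4 CPM in WT, by 2.07-fold (log2 fold change -1.05, SE 0.0645, adjusted p = 2.57e-12). In KO Per1 fell from 66.0, 69.4 and 63.4 CPM to 27.4, 24.5 and 27.9 CPM, by 2.49-fold (log2 fold change -1.32, SE 0.0650, adjusted p = 5.32e-14). Here too the libraries were fully separated. Per2 (ENSMUSG00000055866.9, chr1:91415982-91459324, minus strand), which carries much of the PER function in the central clock, did not pass. It had 5.33, 6.13 and 4.72 CPM in WT UT and 4.92, 4.04 and 5.04 CPM in WT LPS, with a log2 fold change of -0.21 (95% interval -0.52 to 0.10, adjusted p = 0.214), although with upper-quartile scaling it was -0.39 and passed (adjusted p = 0.0242). In KO the Per2 estimate was -0.00 (95% interval -0.31 to 0.30), so that a fall as large as that of Per1 lies outside both intervals.

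The CRY repressors went the other way. Cry2 (ENSMUSG00000068742.11, chr2:92403646-92434043, minus strand) rose from 9.73, 11.8 and 11.6 CPM to 28.7, 25.0 and 25.4 CPM in WT, by 2.38-fold (log2 fold change 1.25, SE 0.0967, adjusted p = 1.31e-10). In KO it rose from 10.0, 9.11 and 10.6 CPM to 17.4, 18.6 and 21.2 CPM, by 1.92-fold (log2 fold change 0.94, SE 0.1003, adjusted p = 2.75e-08), which passed without reaching 1 log2 unit. All LPS libraries lay above all UT libraries. Cry1 (ENSMUSG00000020038.9, chr10:85131700-85185064, minus strand), the stronger repressor of the pair in biochemical assays, rose less. It went from 7.51, 6.66 and 8.31 CPM to 10.7, 8.98 and 9.57 CPM in WT (log2 fold change 0.38, SE 0.114, adjusted p = 0.00476) and from 6.27, 5.79 and 6.78 CPM to 9.47, 10.9 and 10.3 CPM in KO (log2 fold change 0.70, SE 0.116, adjusted p = 1.30e-05). With upper-quartile scaling, which shifts the median of all genes by -0.18 after LPS, the WT rise of Cry1 was 0.20 and no longer passed (adjusted p = 0.115).

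The REV-ERB receptors both fell. Nr1d2 (REV-ERB beta, ENSMUSG00000021775.10, chr14:18204054-18239127, minus strand), the most abundant clock transcript per kb before stimulation, went from 73.6, 76.4 and 76.0 CPM to 32.1, 30.9 and 25.4 CPM in WT, a 2.55-fold fall (log2 fold change -1.35, SE 0.0697, adjusted p = 1.15e-13). In KO it went from 76.0, 75.7 and 77.6 CPM to 37.8, 35.3 and 36.8 CPM, a 2.09-fold fall (log2 fold change -1.06, SE 0.0682, adjusted p = 5.60e-12). Nr1d1 (REV-ERB alpha, ENSMUSG00000020889.11, chr11:98767932-98775333, minus strand) was scarce throughout. It went from 3.74, 3.95 and 3.38 CPM to 2.42, 1.71 and 3.16 CPM in WT (log2 fold change -0.61, SE 0.192, adjusted p = 0.00747) and from 3.61, 3.50 and 3.24 CPM to 1.69, 2.18 and 1.94 CPM in KO (log2 fold change -0.83, SE 0.197, adjusted p = 7.56e-04). The WT libraries of Nr1d1 were separated only narrowly, and without WT LPS replicate 2 the WT value was -0.42 and did not pass (adjusted p = 0.0613). Of its 3077 exonic bases, 263 overlap Thra on the other strand, and Thra fell in the same direction, by -0.86 in WT and -0.92 in KO. Whether counting used the strand was not stated, so the part of Thra reads in the Nr1d1 counts was not tested.

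The activators of the loop moved little. Clock (ENSMUSG00000029238.11, chr5:76209868-76304792, minus strand) had 53.0, 53.7 and 54.3 CPM in WT UT and 52.2, 47.0 and 46.3 CPM in WT LPS, a log2 fold change of -0.14 (SE 0.0605, adjusted p = 0.0377). It was lost in 5 of the 6 fits that left out 1 library of these groups, with values of -0.20 to -0.11. With the batch as a replicate block this difference did not pass (adjusted p = 0.0552), and in protein-coding genes only it was -0.07 (adjusted p = 0.290). In KO the Clock estimate was 0.03 (95% interval -0.10 to 0.16, adjusted p = 0.673), and with upper-quartile scaling it was -0.16 (adjusted p = 0.0171), close to the -0.18 by which that scaling shifts all genes. Arntl (ENSMUSG00000055116.8, chr7:113207465-113314126, plus strand) had 13.6, 14.6 and 14.8 CPM in WT UT and 14.4, 14.99 and 12.02 CPM in WT LPS, with a log2 fold change of -0.05 (95% interval -0.25 to 0.14), and with upper-quartile scaling it was -0.24 and passed (adjusted p = 0.0233). In KO it had 12.3, 13.5 and 12.9 CPM before and 16.0, 14.4 and 13.9 CPM after LPS, where all LPS libraries were higher and the log2 fold change of 0.19 did not pass (SE 0.0926, adjusted p = 0.0644), although DESeq2 gave 0.23 (adjusted p = 0.0332). A change of 1 log2 unit lies outside all 4 intervals.

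**Figure D2:**
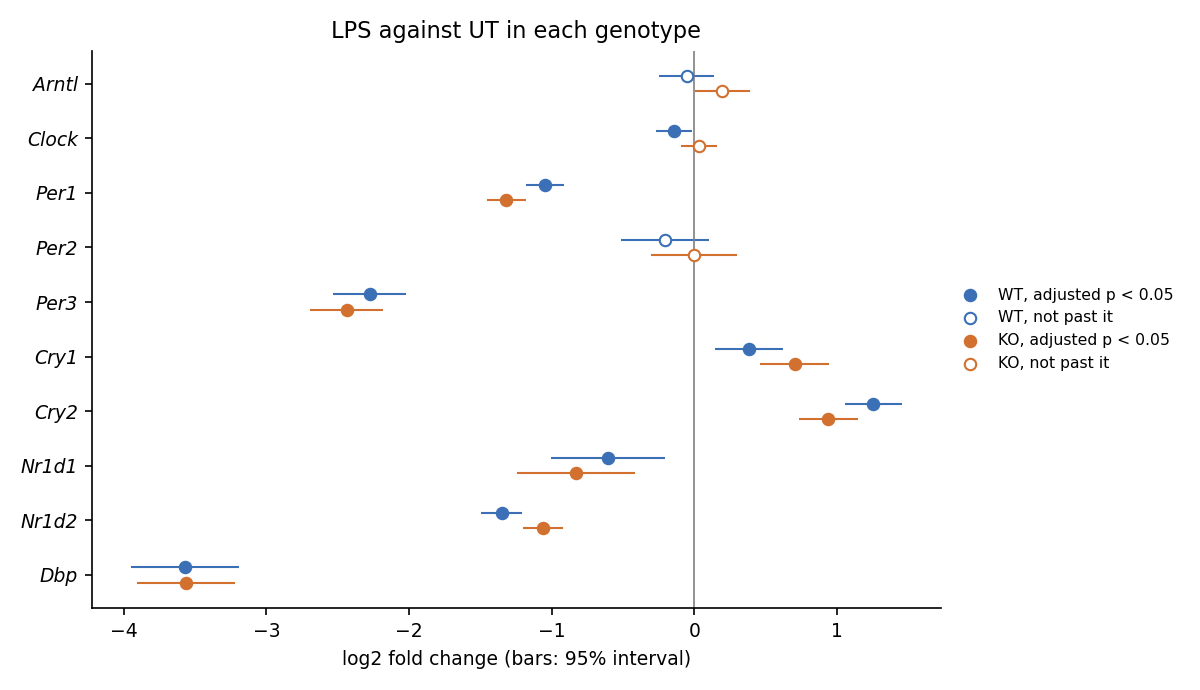
Log2 fold change of each clock gene after LPS, on the horizontal axis, with WT in blue and KO in orange; points are edgeR estimates from 3 against 3 libraries, bars are 95% intervals, and filled points passed an adjusted p of 0.05. Dbp lies near -3.57 in WT and -3.56 in KO, Per3 near -2.28 and -2.44, Cry2 to the right of 0 at 1.25 and 0.94, and Arntl and Per2 cover 0 in WT.

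Summed over the family per kb of exon, the PER transcripts fell and the CRY transcripts rose, and their ratio fell to about 1. The ratio of PER to CRY transcripts was 3.56 ± 0.229 (SD, n = 3) in WT UT and 4.21 ± 0.528 in KO UT, and 0.952 ± 0.104 in WT LPS and 0.988 ± 0.117 in KO LPS. Before LPS this ratio was at least 3.29 in every library, and after LPS it was at most 1.12. The ratio of Cry2 to Cry1 was 0.786 ± 0.131 in WT UT, 0.835 ± 0.00892 in KO UT, 1.43 ± 0.0369 in WT LPS and 0.984 ± 0.0940 in KO LPS. The lowest WT LPS library was at 1.40 and the highest KO LPS library at 1.09, so the genotypes did not overlap after LPS in this ratio. The ratio of the REV-ERB receptors to the activators (Arntl and Clock together) was 2.60 ± 0.0386 in WT UT, 3.02 ± 0.133 in KO UT, 1.16 ± 0.0134 in WT LPS and 1.38 ± 0.0242 in KO LPS. These sums and ratios are descriptions and were not tested. They depend on the annotated exon lengths and are not ratios of RNA molecules.

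**Figure D3:**
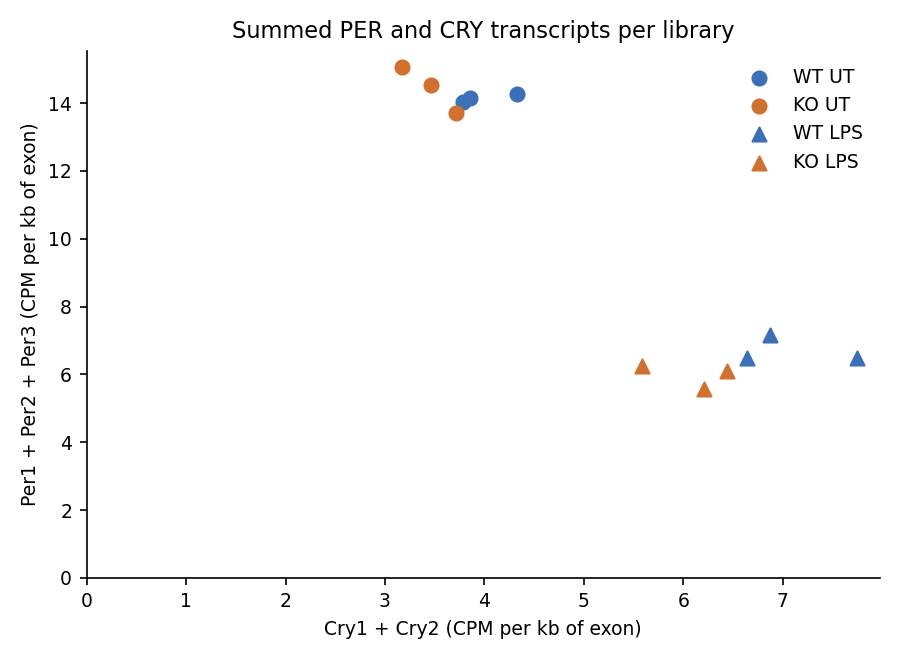
Sum of Per1, Per2 and Per3 (vertical axis) against the sum of Cry1 and Cry2 (horizontal axis) in each of the 12 libraries, both in CPM per kb of exon and starting at 0; circles are UT, triangles LPS, blue WT and orange KO. The UT libraries lie at 13.7 to 15.1 on the PER axis and the LPS libraries at 5.58 to 7.15, with no overlap on either axis.

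The wider clock list held 33 other genes, of which 30 passed the filter on low counts. After LPS 12 were called in WT (8 lower, 4 higher) and 14 in KO (9 lower, 5 higher), where 37.8% and 37% of all genes were called, and at any fold 25 and 26 of the 30 passed, again against 73.3% and 72.8% of all genes. The paralogs of the activators were both called lower. Npas2, which can replace CLOCK, had 96 to 119 counts in a WT UT library and 8, 4 and 0 counts in the WT LPS libraries. Its KO LPS libraries held 3, 2 and 1 counts. The log2 fold change was -3.76 in WT (95% interval -4.63 to -2.89, adjusted p = 5.34e-08) and -4.35 in KO (95% interval -5.38 to -3.32). Leaving out 1 library gave -4.61 to -3.24 in WT and -4.76 to -4.03 in KO. Arntl2, the paralog of Arntl, changed by -1.58 in WT (adjusted p = 9.92e-04) and -1.27 in KO (adjusted p = 0.00646).

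The D-box and RORE arms around the loop also responded. Tef, a bZIP activator of the same family as Dbp, went from 71.8 ± 2.35 CPM (SD, n = 3) in WT UT to 19.5 ± 0.270 in WT LPS (log2 fold change -1.88, SE 0.0591, adjusted p = 1.61e-17), and changed by -1.78 in KO. Nfil3, the repressor that competes for D-boxes, rose from 39.9 ± 1.37 to 77.7 ± 3.08 CPM in WT (log2 fold change 0.96, SE 0.0568, adjusted p = 1.27e-12), and by 0.62 in KO. Hlf, another activator of this family, had 8 counts at most in a library and did not pass the filter. Dbp and Tef fell and the D-box repressor rose. Rora, the ROR receptor that activates Arntl through the RORE, went from 27.7 ± 2.23 to 4.70 ± 0.552 CPM in WT (log2 fold change -2.55, SE 0.117, adjusted p = 1.34e-14) and changed by -2.19 in KO. The RORE activator Rora and the RORE repressors Nr1d1 and Nr1d2 fell together in both genotypes, while the libraries of Arntl overlapped between UT and LPS in WT and were all higher after LPS in KO.

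Of the 3 E-box repressors, Bhlhe41 (DEC2) changed by -2.32 in WT (adjusted p = 1.12e-14) and -1.94 in KO, Bhlhe40 (DEC1) by -0.89 (adjusted p = 9.49e-09) and -1.10, and Ciart, which binds the activator pair, rose by 1.75 (adjusted p = 8.92e-07) and 1.48. Of the 7 kinases, where 37.8% of all genes were called in WT and 37% in KO, only Csnk1e, which encodes the casein kinase 1 epsilon that phosphorylates PER, was called, at -1.92 in WT (adjusted p = 3.49e-15) and -1.76 in KO, whereas the related Csnk1d rose by 0.38 in WT (adjusted p = 7.37e-07). Of the 5 ubiquitin ligase and deubiquitinase genes, Usp2, a deubiquitinase, changed by -2.64 (adjusted p = 8.22e-09) in WT and -1.65 in KO. Fbxw11, a ligase for PER, rose by 0.88 in WT and by 1.07 in KO. Among the 8 cofactors 5 rose and 1 fell in each genotype, where 38% of all genes rose and 35.3% fell in WT and 35.1% and 37.7% in KO, led by Nampt, the enzyme of NAD salvage, at 2.32 in WT (adjusted p = 1.02e-17) and 2.67 in KO. Nono, a PER partner, rose by 1.25 and 1.43, and Timeless, which binds PER proteins and acts at replication forks, by 2.17 and 2.89. Wee1, a cell cycle kinase under clock control, changed by -3.37 (adjusted p = 7.44e-10) and -3.29. Ncor1 and Hdac3, the corepressor pair used by the REV-ERB receptors, did not pass in either genotype, with WT values of -0.07 and -0.04.

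**Figure D4:**
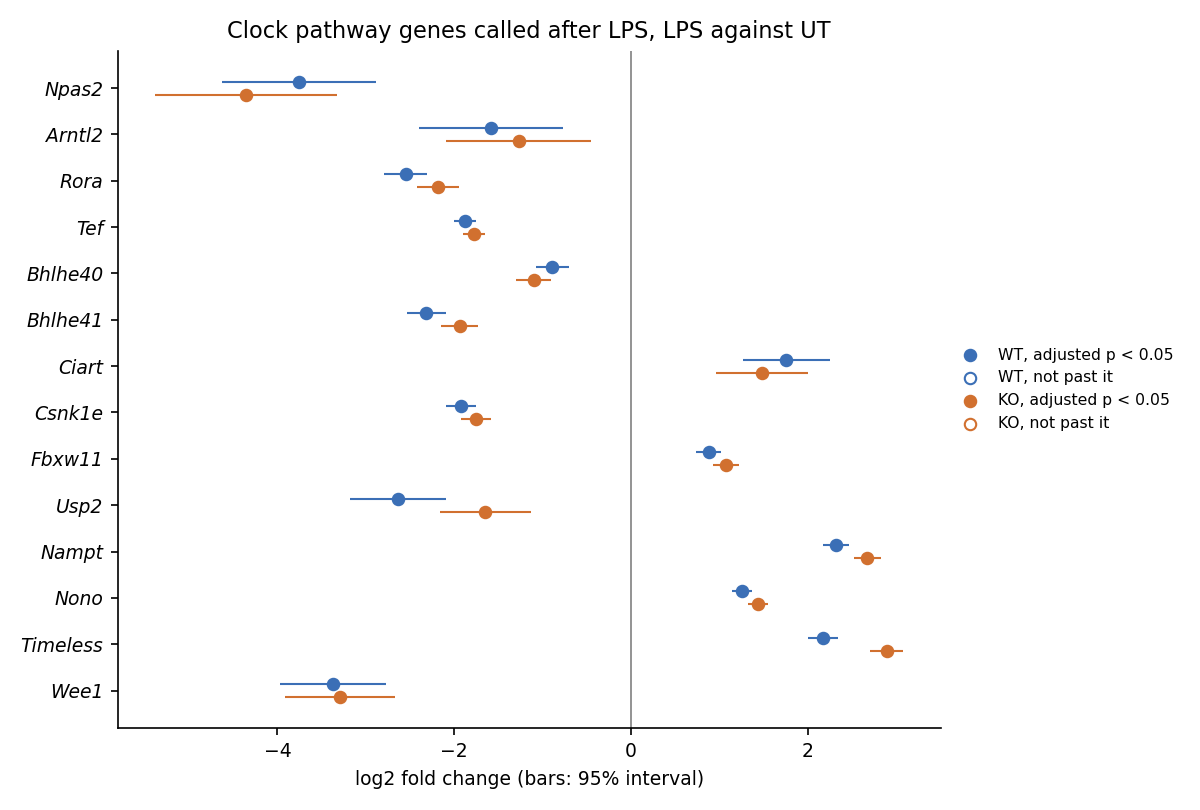
Log2 fold change after LPS of the 14 other clock pathway genes called in at least 1 genotype, on the horizontal axis, WT in blue and KO in orange; points are edgeR estimates from 3 against 3 libraries, bars are 95% intervals, and all points plotted passed an adjusted p of 0.05. Npas2, Wee1, Rora, Bhlhe41, Csnk1e and Tef lie to the left in both genotypes, and Nampt, Timeless, Ciart and Nono to the right.

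The second question was whether the HSS9 deletion altered clock genes in unstimulated cells. None of the 10 was called in KO UT against WT UT (1.82% of all genes were), and 3 had an unadjusted p under 0.05. At any fold 2 passed, beside 23.8% of all genes (14.1% higher, 9.69% lower), so clock genes passed no more often than the background. Dbp was higher in KO UT, at 20.6, 21.6 and 19.2 CPM against 14.9, 15.3 and 14.7 CPM, with all KO libraries above all WT libraries. The difference was 1.37-fold (log2 fold change 0.45, SE 0.121, adjusted p = 0.00881), with 0.46, 0.49 and 0.38 within the batches. Without KO UT replicate 2 it was 0.41 and did not pass (adjusted p = 0.0505). Clock was lower in KO UT, at 44.4, 47.6 and 45.5 CPM against 53.0, 53.7 and 54.3 CPM (log2 fold change -0.23, SE 0.0595, adjusted p = 0.00733), again without overlap, and with -0.25, -0.17 and -0.26 within the batches. Arntl, the partner of Clock, was also lower in all 3 KO UT libraries, but its log2 fold change of -0.15 (95% interval -0.34 to 0.03) did not pass (adjusted p = 0.242). Non-overlapping libraries were common, at 40.8% of all genes (21.6% higher, 19.1% lower).

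The other 7 clock genes did not pass in this comparison. Cry1 had 6.27, 5.79 and 6.78 CPM in KO UT and 7.51, 6.66 and 8.31 CPM in WT UT, with a log2 fold change of -0.25 (SE 0.114, adjusted p = 0.117), and passed at -0.33 with DESeq2 (adjusted p = 0.0309) and with RLE scaling (adjusted p = 0.0356). Per1, Per2, Per3 and Nr1d2 had estimates between -0.02 and 0.04, with intervals that reached 0.31 at most for Per2, and Cry2 and Nr1d1 had -0.15 and -0.10. The small structured RNA share moved with the genotype here without overlap, at 6.64 to 7.98% in KO UT and 3.00 to 3.25% in WT UT. So did the marker sums of 3 lists, namely neutrophil, macrophage (32580 to 33679 CPM in KO UT, 28398 to 29435 in WT UT) and T cell (2.53 to 3.27 against 1.77 to 2.30 CPM). Lyz2 made up most of the macrophage sum, at a mean of 27341 CPM in KO UT against 23453 in WT UT. Adgre1, Cd68, Itgam and Mertk also had higher means in KO UT, while Csf1r (2242 against 2448 CPM) and Fcgr1 (264 against 267) had lower ones. The T cell sum was nearly all Cd4, at 2.89 against 1.92 CPM, with Cd3d, Cd3e and Cd3g at 0.0461 CPM or less. The part of the share and of these lists in the differences was not tested. With the small structured RNA share as a covariate, Dbp was at -0.30 (adjusted p = 0.791) and Clock at -0.01 (adjusted p = 0.987). Because the share separates the genotypes in UT, share and genotype cannot be told apart in that fit.

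After LPS the deletion was accompanied by small differences in other clock genes. None of the 10 was called in KO LPS against WT LPS (1.25% of all genes were), and 3 passed at any fold, beside 14.3% of all genes (7.78% higher, 6.54% lower). These 3 also had an unadjusted p under 0.05, and their libraries did not overlap between genotypes, which held for 29.1% of all genes. Cry2 was lower in KO LPS, at 17.4, 18.6 and 21.2 CPM against 28.7, 25.0 and 25.4 CPM in WT LPS (log2 fold change -0.47, SE 0.0961, adjusted p = 0.00240). Within the batches the difference was -0.72, -0.42 and -0.26. Nr1d2 was higher in KO LPS, at 37.8, 35.3 and 36.8 CPM against 32.1, 30.9 and 25.4 CPM (log2 fold change 0.31, SE 0.0723, adjusted p = 0.00621), with 0.24, 0.19 and 0.54 within the batches. Its lowest WT LPS library was replicate 3, which also had the highest small structured RNA share of its group. The stromal marker sum (26.3 to 28.4 CPM in KO LPS, 21.6 to 23.9 in WT LPS, with Pdgfrb at 19.7 and 19.8) and the small structured RNA share moved with genotype after LPS. So did the macrophage sum (27051 to 28719 CPM in KO LPS, 24434 to 25939 in WT LPS) and the T cell sum (0.732 to 1.09 against 0.377 to 0.584 CPM). Every macrophage marker had the higher mean in KO LPS, with Lyz2 the largest at 20290 against 18507 CPM. The T cell sum was nearly all Cd4, at 0.914 against 0.457 CPM, with Cd3d, Cd3e and Cd3g at 0.0128 CPM or less. The part of these marker lists in the differences was not tested.

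Per1 was lower in KO LPS, at 27.4, 24.5 and 27.9 CPM against 30.1, 30.3 and 33.4 CPM (log2 fold change -0.23, SE 0.0682, adjusted p = 0.0268), with -0.14, -0.31 and -0.26 within the batches. The Per1 difference did not pass without WT LPS replicate 3 (adjusted p = 0.117), without KO LPS replicate 1 (adjusted p = 0.0514) or without KO LPS replicate 2 (adjusted p = 0.147). With the small structured RNA share as a covariate, Nr1d2 was at 0.12 (adjusted p = 0.417), Per1 at -0.12 (adjusted p = 0.470) and Cry2 at -0.63 (adjusted p = 0.00152). The share also separates the genotypes after LPS, at 4.04 to 6.89% in WT LPS and 3.23 to 3.43% in KO LPS. Share and genotype therefore cannot be told apart in that fit. Dbp, which had differed in UT, had 2.11, 1.91 and 1.171 CPM in KO LPS and 0.745, 1.75 and 1.37 CPM in WT LPS, and its log2 fold change of 0.46 (95% interval -0.07 to 0.98) did not pass (adjusted p = 0.245) and ranged from 0.14 without WT LPS replicate 1 to 0.75 without WT LPS replicate 2. Clock was at -0.05 (95% interval -0.18 to 0.08). Arntl, Per2 and Cry1 were at 0.10, 0.23 and 0.07, and Per3 and Nr1d1 at -0.19 and -0.32, with overlapping libraries in each case. Per3 went to -0.05 without WT LPS replicate 2 and Nr1d1 to -0.10 without WT LPS replicate 3, and neither passed in any fit that left out 1 library.

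**Figure D5:**
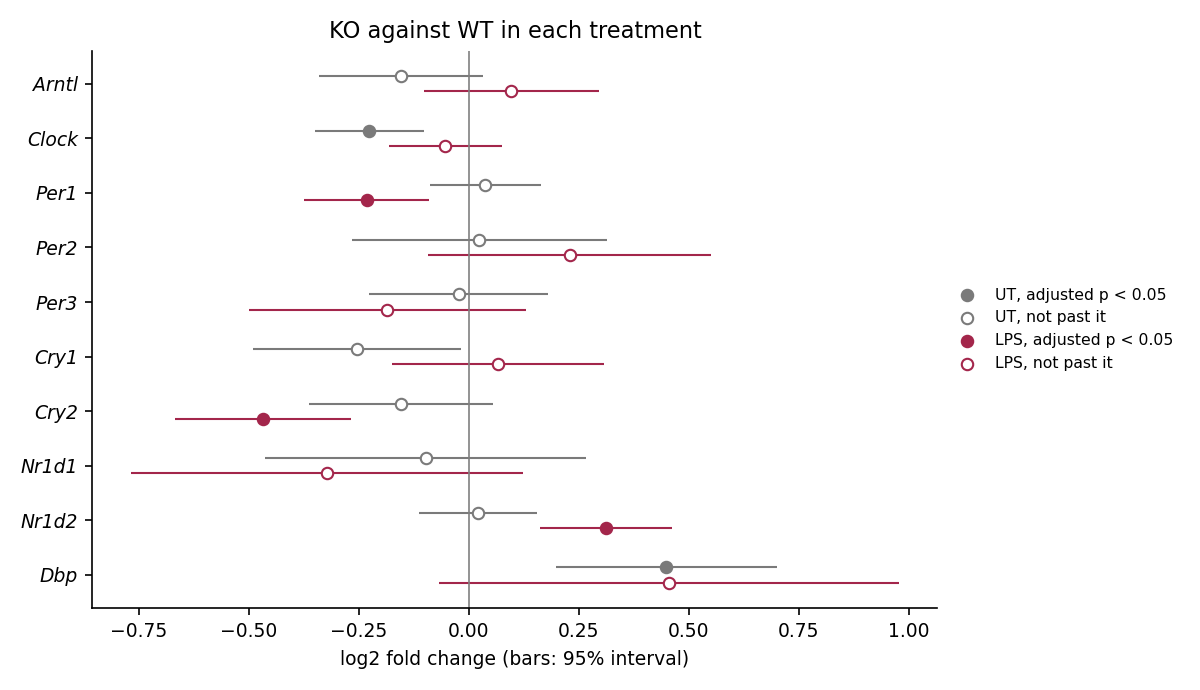
Log2 fold change of KO against WT for each clock gene, on the horizontal axis, with UT in grey and LPS in dark red; points are edgeR estimates from 3 against 3 libraries, bars are 95% intervals, and filled points passed an adjusted p of 0.05. In UT the filled points are Dbp at 0.45 and Clock at -0.23, and in LPS Cry2 at -0.47, Nr1d2 at 0.31 and Per1 at -0.23.

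Whether the LPS response itself differed between genotypes was tested by the interaction. None of the 10 clock genes was called (2.16% of all genes were), and 2 passed at any fold, beside 16.8% of all genes. Per1 fell more in KO, with a difference of responses of -0.27 (SE 0.0912, adjusted p = 0.0475), and Nr1d2 fell less in KO, with 0.29 (SE 0.0970, adjusted p = 0.0443). Each was lost in 9 of the 12 fits that left out 1 library, with differences of -0.30 to -0.21 for Per1 and 0.20 to 0.36 for Nr1d2, and DESeq2 gave -0.19 for Per1 (adjusted p = 0.157). With the batch as a replicate block neither passed, with adjusted p = 0.0760 for Per1 and adjusted p = 0.0693 for Nr1d2. Cry2, whose libraries were separated after LPS, had an interaction of -0.31 (95% interval -0.60 to -0.02) that did not pass (adjusted p = 0.135). The Dbp and Clock differences seen in UT were not shown to depend on the treatment, with interactions of 0.01 (adjusted p = 0.993) and 0.17 (adjusted p = 0.186). Arntl, Per2, Per3, Cry1 and Nr1d1 did not pass in the interaction either. Leaving out 1 library gave 0.16 to 0.31 for Arntl, 0.10 to 0.31 for Per2 and -0.28 to -0.026 for Per3. It gave 0.24 to 0.40 for Cry1 and -0.42 to -0.0063 for Nr1d1.

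Among the 30 pathway genes none was called between genotypes. In UT 6 passed, all lower in KO, where 23.8% of all genes passed (9.69% lower), namely Timeless at -0.64 (adjusted p = 3.78e-05), the E-box repressor Bhlhe40 at -0.46 (adjusted p = 3.09e-04), the kinase gene Gsk3b at -0.31, the histone acetyltransferase genes Ep300 at -0.26 and Crebbp at -0.23, and the methyltransferase gene Kmt2a at -0.15. The Kmt2a value did not pass with the replicate block (adjusted p = 0.0701) or in any of the 6 fits that left out 1 UT library (-0.17 to -0.12). The median of the 30 was -0.16 in UT, beside 0.00 over all genes, and 15 of them lay lower in all KO UT libraries and 1 higher, where 19.1% and 21.6% of all genes did. After LPS 4 passed, a share near the 14.3% of all genes. Bhlhe40 at -0.67 (adjusted p = 1.13e-04), Kmt2a at -0.43 (adjusted p = 1.22e-05) and Nfil3 at -0.28 (adjusted p = 0.00221) were lower in KO. Csnk2a1 at 0.24 (adjusted p = 0.00986) was higher, and was lost in 1 of the 6 fits that left out 1 LPS library (0.21 to 0.27, highest adjusted p = 0.0535). Bhlhe40 was lower in KO in both treatments, at 19.1 ± 0.871 against 26.2 ± 0.253 CPM (SD, n = 3) in UT and 8.89 ± 0.763 against 14.1 ± 1.89 CPM in LPS. With the small structured RNA share as a covariate, Timeless was at -0.81 in UT (adjusted p = 0.0211) and Bhlhe40 at 0.01 (adjusted p = 0.985). In the same fit Bhlhe40 after LPS was at -0.89 (adjusted p = 1.79e-05). Because the share separates the genotypes in both treatments, share and genotype cannot be told apart in these values. These genes were named after their values were seen.

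As a description of pattern over the 12 libraries, which fall into 4 groups and share the LPS contrast, the log2 CPM of each clock gene was correlated with that of 9072 protein-coding genes with a mean of at least 5 CPM. Among the closest genes were Hs2st1 (r = 0.997) and Wrb for Nr1d2, Cenpa (r = 0.998), Kdsr and Zfp704 for Per3, Map1lc3b (r = 0.997) and Osm for Per1, and Matk (r = 0.995), Urod and Orai3 for Dbp. For Cry2 they included Psd3 (r = 0.989), Apaf1 and Dclre1c. The genes that moved least had weaker neighbours, Klf13 for Clock (r = 0.942), Zfp87 for Arntl (r = 0.872) and Hps4 for Per2 (r = 0.786). Within the loop the closest pair was Per1 and Per3 (r = 0.990), where Per3 ranked 62 among the genes by their likeness to Per1. Clock and Arntl, whose proteins form the activator pair, had r = 0.397, and Cry1 and Cry2 ran opposite to Per1 at r = -0.908 and -0.889.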

How the data were processed

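Total RNA was extracted with TRIzol, made into libraries with the Globin version of the stranded TruSeq kit for total RNA and sequenced as paired ends on a HiSeq 3000. Per the labels and the methods, the authors checked reads with FastQC 0.11.9, aligned them to GRCm38 with HISAT2 2.1.0, handled the alignments with SAMtools 1.17 and deposited the gene counts of featureCounts 2.0.0. The annotation release and the settings for strand and for reads that map to several places were not given in the sources used here, so that reads of overlapping genes may be shared. The deposited counts are whole numbers and were not normalized. Of 48526 identifiers, 22406 had 0 counts in every library, 48058 matched GENCODE M21 and 468 did not (0.144% of counts), and all were kept for library sizes.

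The 12 libraries were fitted together in edgeR 4.0.16 (R 4.3.3) with TMM scaling, filterByExpr (minimum count 10, minimum total 15), 4 group means and the quasi-likelihood test, with Benjamini-Hochberg adjustment over the 15523 genes kept. SE is the absolute log2 fold change divided by the square root of F, and intervals cover 95%. A gene was called at an adjusted p under 0.05 and an absolute log2 fold change over 1, the criteria of the study, and passed at an adjusted p under 0.05 at any fold. Alternatives were DESeq2 1.42.0, the study's tool, other scalings and filters, protein-coding genes, a replicate block, the small structured RNA share as a covariate, only the groups compared, and leaving out each library. The batch numbers of the labels pair the libraries, but libraries with the same number did not deviate together: over 18 pairs r lay between -0.0631 and 0.0373, and 0 were over 0.1. CPM per kb uses the union of a gene's exons. All members are named in every contrast, pathway genes where called after LPS, and other pathway genes after their values were seen. The 10 members, the pathway list and the marker lists were chosen with earlier results of these data known. Plots were drawn with matplotlib 3.10.9. Some genes of the pathway list and of the likeness ranking are not reported here.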

Additional observations from a re-analysis of the deposited data

Results flagged for a closer look

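The LPS response of 9 clock or clock pathway genes differed between genotypes by the interaction test of edgeR at an adjusted p under 0.05, where 16.8% of all genes did. Among the 10 clock genes these were Per1, with a difference of -0.27 (responses of -1.05 in WT and -1.32 in KO, adjusted p = 0.0475), and Nr1d2, with a difference of 0.29 (-1.35 in WT and -1.06 in KO, adjusted p = 0.0443). Both were lost with the replicate block, at an adjusted p of 0.0760 and 0.0693.

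Among the pathway genes Timeless rose more in KO, by a difference of 0.72 (2.17 in WT and 2.89 in KO, adjusted p = 3.39e-04), and its KO UT libraries started lower. Gsk3b fell in WT (-0.27) and rose in KO (0.19), a difference of 0.45 (adjusted p = 0.00277). Prkaa1, a subunit gene of the AMP kinase, and Nampt each rose more in KO, by 0.35 (adjusted p = 0.0334) and 0.35 (adjusted p = 0.0145). Ep300 rose more in KO by 0.33 (adjusted p = 0.00536). Nfil3 and Kmt2a rose less in KO, by -0.34 (0.96 in WT and 0.62 in KO, adjusted p = 0.00536) and -0.28 (0.70 in WT and 0.42 in KO, adjusted p = 0.0118). Leaving out 1 library at a time, 8 of 12 fits lost the Prkaa1 difference, with values of 0.27 to 0.47, and 1 of 12 lost that of Nampt, without WT UT replicate 2 (adjusted p = 0.0507). RLE scaling left Kmt2a at -0.20 (adjusted p = 0.0598). The small structured RNA share was higher in KO UT than in WT UT and higher in WT LPS than in KO LPS without overlap, and with it as a covariate none of the 9 differences passed. In that fit the share and the groups cannot be told apart.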

How the results depend on the processing

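Of 850 values of the 10 clock genes under an alternative, 748 kept their direction and their side of the threshold, 45 lost the threshold, 10 gained it and 47 changed sign. The LPS responses of Dbp, Per3, Per1, Nr1d2 and Cry2 in both genotypes passed in the same direction in all 160 values, from 16 alternatives for each response, with a highest adjusted p of 0.0174. Of 721 values of pathway genes 685 stayed the same, and 167 of 180 counts of called genes stayed within 1.5 times the reported count. With no fold change minimum the clock genes counted were 3 (KO LPS against WT LPS), 2 (KO UT against WT UT), 8 and 7 (LPS in WT and KO) and 2 (interaction), and the clock pathway genes 4, 6, 25, 26 and 7. For the interaction, 1 of the clock pathway genes was called with DESeq2, and leaving out a library gave 0 to 1.

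With the small structured RNA share as a covariate, signs changed for Arntl (-0.0545) and Cry1 (-0.0773) in KO LPS against WT LPS. In KO UT against WT UT they changed for Arntl (0.17), Per1 (-0.19), Per2 (-0.29), Cry1 (0.0524), Cry2 (0.19), Dbp (-0.30), Bhlhe40 (0.0150) and Gsk3b (0.16). After LPS they changed for Arntl (0.11 in WT, -0.11 in KO), Clock (-0.18 in KO) and Per2 (0.30 in KO). In the interaction they changed for Arntl (-0.23), Clock (-0.15), Per1 (0.0727), Per3 (0.34), Cry1 (-0.13), Nr1d1 (0.67), Nr1d2 (-0.31), Gsk3b (-0.24), Prkaa1 (-0.40) and Nampt (-0.36). Of these values none passed, and the cause was not tested. DESeq2 and RLE scaling gave -0.0362 and -0.0362 for Per1, -0.0496 and -0.0497 for Per2 and -0.0522 and -0.0522 for Nr1d2 in UT, and 0.0336 and 0.0337 for Per2 in KO after LPS. The LPS response of the median gene shifted by -0.18 in each genotype when libraries were scaled by the upper quartile, which gave -0.16 for Clock in KO, -0.24 for Arntl and -0.39 for Per2 in WT, all 3 of which then passed, and -0.0011 for Nr1d2 in UT. With protein-coding genes only, Arntl was 0.0213 in WT and Per2 0.0331 in KO after LPS, and the Dbp interaction was -0.0348, against -0.0137 with a mean CPM of at least 1. Per2 in KO was 0.0017 with only the groups compared.

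Leaving out 1 library gave ranges across 0 for Clock (-0.0847 to 0.00506, KO LPS against WT LPS), Per2 (-0.0779 to 0.13) and Per3 (-0.0628 to 0.0298) in UT, Arntl in WT (-0.12 to 0.0311) and Per2 in KO (-0.0881 to 0.10) after LPS, and the Dbp interaction (-0.31 to 0.30). The Per1 interaction ranged from -0.30 to -0.21 and that of Nr1d2 from 0.20 to 0.36, with a highest adjusted p of 0.147 and 0.114. With the replicate block, Clock in WT after LPS (adjusted p = 0.0552), the Per1 (0.0760) and Nr1d2 (0.0693) interactions and Kmt2a in UT (0.0701) no longer passed, and it changed no other call. After LPS a library held 20 to 55 counts of Dbp, 38 to 67 of Nr1d1, 71 to 92 of Per3 and 90 to 157 of Per2, and the part of depth in their intervals was not tested.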
